A study of Mus musculus with 24 samples.

Results

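The genes described here encode the respiratory chain and ATP synthase of the mouse, the machinery of oxidative phosphorylation. They were chosen by gene symbol alone, as the symbols that begin with mt-Nd, mt-Co, mt-Cytb, mt-Atp, Nduf (a, b, c, s or v), Uqcr, Cox4 to Cox8 or Atp5, with Sdha, Sdhb, Sdhc and Sdhd. The rule found 105 of the 24007 genes in the table: 92 nuclear genes and the 13 protein genes of the mitochondrial genome, which are reported apart. The nuclear genes comprised 36 subunits of complex I, 4 of complex II, 8 of complex III, 17 of complex IV (Ndufa4 included) and 15 of complex V. A further 7 encode assembly factors of complex I (the Ndufaf genes), 3 carry a family name without being subunits of the textbook complex (Atp5s, Atp5sl, Ndufa4l2), and 2 are pseudogene symbols (Atp5l-ps1, Atp5l2-ps).

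The respiratory chain passes electrons from NADH (complex I) and succinate (complex II) through complex III to complex IV, which reduces oxygen. Complexes I, III and IV pump protons across the inner mitochondrial membrane, and complex V (ATP synthase) uses the gradient to make ATP. Complexes I, III, IV and V are built from subunits of both genomes, whereas complex II is encoded in the nucleus alone, and the mitochondrial genes are transcribed as long precursors from both strands of a circular genome.

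RNA was sequenced from 3 epithelial populations sorted from mammary glands of female FVB/N mice, either wild-type (WT) or knockout for Id4 (KO), aged 10 to 12 weeks and in estrus. Live, lineage-negative cells that were CD24+ were sorted as basal (CD29hi CD61+), luminal progenitor (LP, CD29lo CD61+) and mature luminal (ML, CD29lo CD61-) cells. The 6 groups, WT basal, WT LP, WT ML, KO basal, KO LP and KO ML, had 4 biological replicates each, every replicate a pool of glands from 4 to 8 mice, so 24 libraries were analysed. In these sorted bulk samples, fewer cells of a type and less RNA of a kind per cell cannot be told apart.

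Library totals ran from 3098433 to 7246445 counts, and 3 counts in a library equalled 0.414 to 0.968 CPM, the usual count per library size, a limit that covers counting error only because reads carried no molecular identifiers. Id4 read 13.3 to 86.2 CPM in WT basal and 0.931 to 10.9 CPM in KO basal libraries, and at most 1.38 CPM in every luminal library. The summed level of 8 basal markers was at least 6918 CPM in basal and at most 201 CPM in luminal libraries. The sum of 6 LP markers was 745 to 2098 CPM in LP libraries, and that of 7 ML markers was 4494 to 8980 CPM in ML libraries, so the sorted populations carried the markers of their labels. WT basal replicate 2 stood apart, with an LP marker sum of 670 CPM against a median of 148 CPM in its group, and KO basal replicate 3 had the highest endothelial marker sum of all libraries, 196 CPM. Markers of brown fat and skeletal muscle, tissues rich in mitochondria, summed to at most 13.9 and 11.3 CPM in any library.

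Nuclear respiratory chain transcripts took the largest share of counts in ML cells in both genotypes. Their summed share of a library's counts was 0.301%, 0.329%, 0.220% and 0.281% in WT basal replicates 1 to 4. In WT LP it was 0.348%, 0.327%, 0.282% and 0.321%, and in WT ML 0.622%, 0.475%, 0.329% and 0.459%. WT basal replicate 2 reached the level of WT ML replicate 3, and no WT LP library but replicate 1 exceeded the lowest WT ML library. In KO libraries the share was 0.265%, 0.361%, 0.175% and 0.233% in basal, 0.316%, 0.325%, 0.242% and 0.229% in LP, and 0.433%, 0.468%, 0.282% and 0.350% in ML. The KO ML values thus overlapped both other KO populations. Among libraries of 1 genotype with the same replicate number, ML had the highest share in 8 of 8 sets. The ML median was 1.61 times the basal median in WT and 1.57 times in KO. A summed share is weighted to its most abundant genes. Over the 24 libraries Atp5b held 132760 counts, and no other nuclear member held more than 40216.

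Transcripts of the 13 mitochondrial protein genes were far more abundant in sum and did not separate the populations. They took 1.99% to 2.77% of counts in WT basal, 1.71% to 2.72% in WT LP and 2.00% to 4.07% in WT ML. In KO the ranges were 2.00% to 2.97%, 1.96% to 3.41% and 2.48% to 3.95%, so all groups overlapped. This sum is weighted to mt-Co1, with 1516220 counts over all libraries, where no other of the 13 genes held more than 398273. Ribosomal RNA of the mitochondrion, from 2 genes, made up 13.5% to 35.1% of counts, which lowers every other share in a library. Outside those 2 genes, the nuclear share was lowest in basal and highest in ML cells in 8 of 8 sets. Replicate 3 had the lowest nuclear share in 5 of 6 groups and the lowest total count in all 6 groups, and the part of depth in these shares was not tested.

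**Figure D1:**
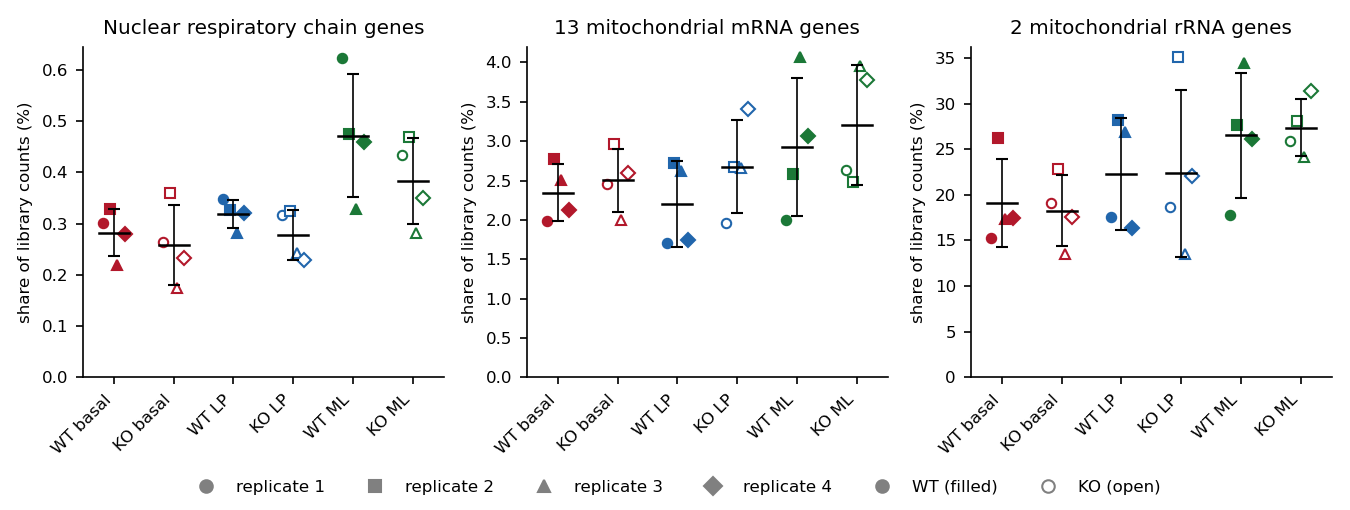
Share of each library's counts (%, linear axis) taken by the nuclear respiratory chain genes, the 13 mitochondrial protein genes and the 2 mitochondrial ribosomal RNA genes. Each symbol is 1 library, its shape the replicate number, filled for WT and open for KO; the horizontal line is the group mean and the bar is ± 1 SD (n = 4). The nuclear share peaked at 0.622% in WT ML replicate 1, while the share of the 13 mitochondrial protein genes overlapped in all 6 groups. The ribosomal RNA share was 13.5% to 22.9% in KO basal and 24.1% to 31.4% in KO ML libraries, without overlap. In WT libraries it was 15.3% to 26.2% in basal and 17.7% to 34.4% in ML, with overlap.

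Levels per transcript length differed widely within the chain. In WT ML cells the median over nuclear subunits was 21.1 CPM per kilobase in complex I, 33.1 in complex II, 27.6 in complex III, 64.7 in complex IV and 79.8 in complex V. The complex IV median is over 17 genes, 5 of them under 1 CPM per kilobase, and the other complexes had 0 such genes. It is therefore lower than the median of the expressed complex IV genes, and the order of complexes IV and V is not settled by it. Atp5b, the catalytic beta subunit of ATP synthase, was the most abundant nuclear member, at 1449 ± 380 CPM per kilobase in WT ML and 867 ± 123 in WT basal cells (SD, n = 4). Mt-Co1, the catalytic subunit of complex IV, stood highest of all members at 9190 ± 4385 CPM per kilobase in WT ML, 7052 ± 3160 in WT LP and 5116 ± 1444 in WT basal cells. The SD in WT LP and WT ML cells was larger than the step between any neighbouring pair of these means, and the SD in WT basal cells was smaller. Lowest of the 13 mitochondrial genes, mt-Nd3, a small core subunit of complex I, read 20.6 ± 15.7 to 58.5 ± 14.7 CPM per kilobase across the WT populations. It had 0 counts in WT basal replicate 1, WT LP replicate 4 and KO LP replicate 3, where mt-Nd4 held 15800.5, 11950 and 11952.2. Its level is therefore uncertain, and the reason for the zeros was not tested.

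Counts of some neighbouring mitochondrial genes share bases and are uncertain for that reason. The reading frames of mt-Atp8 and mt-Atp6, 2 subunits of ATP synthase, overlap by 43 bases at chrM:7927-7969 (GRCm38, plus strand), shown here because reads from it can be assigned to either gene. Capitals mark the start codon of mt-Atp6, and the sequence is from the GENCODE M21 transcripts.
mt-Atp8 and mt-Atp6 overlap: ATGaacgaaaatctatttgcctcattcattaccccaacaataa
The last base of mt-Atp6 is the first of mt-Co3, mt-Nd4l and mt-Nd4 share 7 bases, and mt-Nd5 and mt-Nd6 share 14 bases on opposite strands. How the authors' counting treated such bases, strand or nuclear copies of mitochondrial sequence was not stated in the labels or the table.

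Among WT populations, the most nuclear respiratory chain genes were called between basal and ML cells, and all of them were lower in basal cells. Of the 92 nuclear members, 83 passed the filter on low counts in the WT libraries, and 20 of these (24.1%) were lower in WT basal than in WT ML cells by edgeR's quasi-likelihood test (two-sided, Benjamini-Hochberg adjusted p under 0.05). Of all 12771 genes tested, 10.6% were lower. None of the 83 was higher, where 14% of all genes were, while 36 of the 83 had an unadjusted p under 0.05 in either direction and DESeq2 called 26. The median log2 fold change was -0.77 over the 83 members and 0.01 over all genes, and 74 of 83 estimates were below 0. All 4 basal libraries lay below all 4 ML libraries for 21 of the 83 members, against 13.9% of all genes. The members share these 8 libraries, so their directions are not independent of each other.

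The count of 20 moved with single libraries and with the pair of replicates used. It was 39 without WT basal replicate 2, 7 without basal replicate 3, 12 without basal replicate 4, 8 without ML replicate 1 or ML replicate 2, and 11 without ML replicate 4. With replicates 1 and 2 only it was 2, and with replicates 3 and 4 only it was 29. The median log2 fold change stayed between -1.07 (without basal replicate 2) and -0.62 (without basal replicate 3) in all of these fits, and was -0.73 and -1.01 within the pairs.

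Lower genes came from each of the 5 complexes. They were 6 of 36 tested subunits of complex I (Ndufa8, Ndufa12, Ndufb9, Ndufs4, Ndufv1, Ndufv3), 1 of 4 of complex II (Sdhd), and 3 of 8 of complex III (Uqcr11, Uqcrc2, Uqcrh). In complex IV 5 of 12 were lower (Cox4i1, Cox5b, Cox6b1, Cox7a2, Cox7b), and in complex V 5 of 15 (Atp5b, Atp5c1, Atp5g3, Atp5h, Atp5j2). The median log2 fold change was -0.83 in complex I, -0.68 in complex II, -0.83 in complex III, -0.83 in complex IV and -0.69 in complex V. None of the 6 tested complex I assembly factors passed edgeR's test, with 1 of 6 at an unadjusted p under 0.05. Among all 83, the genes with estimates above 0 were 9, led by the assembly factor Ndufaf4 (1.38 ± 0.57 SE, adjusted p = 0.0879) and Atp5g1 (0.88 ± 0.36, adjusted p = 0.0921), neither of which passed the edgeR test.

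Nuclear respiratory chain transcripts are short, and short genes as a class were lower in basal cells. Of the 92 nuclear members 67 had a length under 1000 bases, and their median length was 703 bases against 1900 for all genes. Of 1337 tested genes under 1000 bases, 12.1% were lower and 4.79% higher in WT basal than ML cells, with a median of -0.38 on the log2 scale. The 58 tested members under 1000 bases had 27.6% lower and a median of -0.79. Among longer genes, 16% of the 25 members and 10.4% of all genes were lower, with medians of -0.69 and 0.05. The part of transcript length in the member differences was not tested further.

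**Figure D2:**
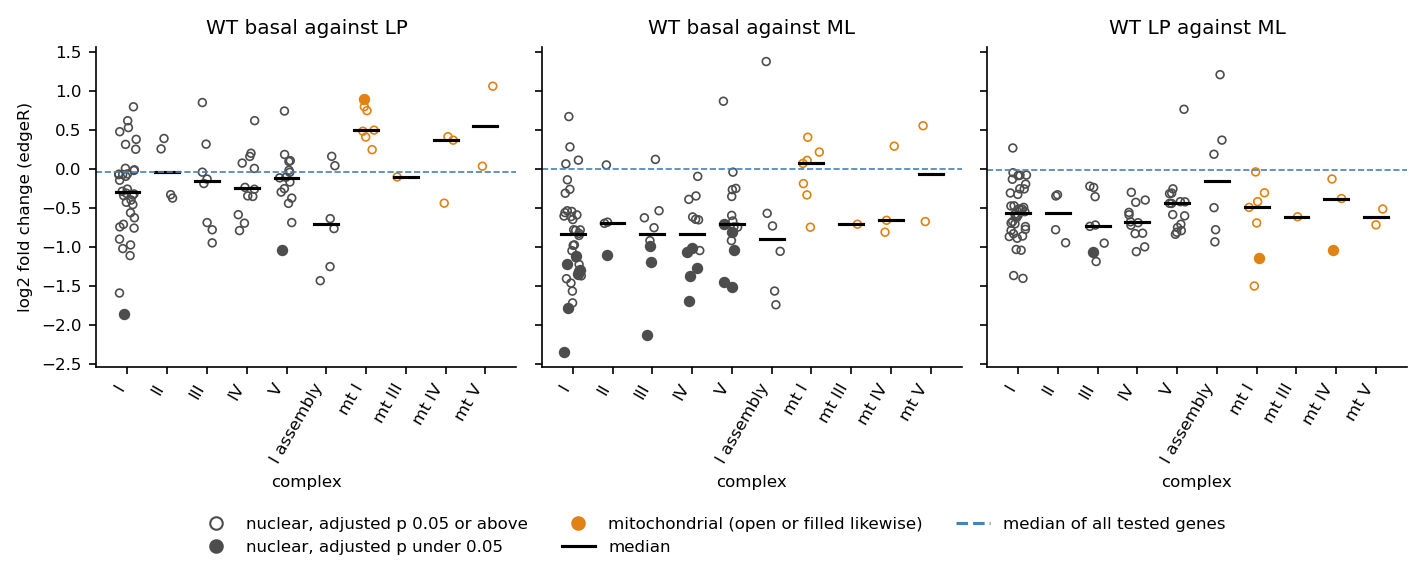
Log2 fold changes (edgeR) between WT populations for the nuclear members of complexes I to V and the complex I assembly factors (dark) and the mitochondrial genes (orange); Atp5s and Atp5sl are left out. Filled circles had an adjusted p under 0.05, black bars are medians and the dashed line is the median of all genes tested. In the middle panel the medians of complexes I to V lie between -0.83 and -0.68 and that of the assembly factors at -0.89, and the mitochondrial genes spread around the dashed line.

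Atp5c1, the gamma subunit that forms the rotating stalk of ATP synthase (chr2:10056016-10080510, minus strand, GRCm38), had the smallest adjusted p of the 20. Its level was 99.8, 63.7, 44.6 and 81.9 CPM in WT basal replicates 1 to 4, 177, 168, 150 and 112 CPM in WT LP, and 203, 219, 179 and 215 CPM in WT ML. Every basal library lay below every luminal library, and LP lay below ML without overlap. The log2 fold change was -1.45 ± 0.24 (SE) for basal against ML (edgeR, adjusted p = 0.000394) and -1.04 ± 0.24 against LP (adjusted p = 0.00743). The basal against LP value was -1.05 with replicates 1 and 2 alone and -1.04 with replicates 3 and 4 alone.

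Uqcrh, the hinge protein of complex III (chr4:116066965-116075071, minus strand), was the nuclear member called lower than ML in both other WT populations. It read 38, 34.2, 17.8 and 35.4 CPM in WT basal, 34.6, 43.0, 30.4 and 31.4 CPM in WT LP, and 74.9, 68.6, 73.8 and 76.6 CPM in WT ML. The ML libraries did not overlap the others, while basal and LP did overlap. The log2 fold change was -1.19 ± 0.27 for basal against ML (edgeR, adjusted p = 0.00379) and -1.06 ± 0.26 for LP against ML (adjusted p = 0.0145). Without LP replicate 3 the second adjusted p was 0.0505.

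Ndufv3, an accessory subunit of the NADH-binding arm of complex I, had the largest difference of the lower genes. It read 2.46, 0.993, 1.75 and 4.05 CPM in WT basal, 8.66, 14.3, 6.54 and 5.37 CPM in WT LP, and 14.8, 12.8, 11 and 10.5 CPM in WT ML. The basal libraries lay below all luminal ones, although at these levels a basal library held few counts. Its log2 fold change was -2.34 ± 0.56 for basal against ML (edgeR, adjusted p = 0.00571) and -1.86 ± 0.55 against LP (adjusted p = 0.0309), and the second call was lost in 4 of the 8 fits that left out a library (basal replicates 1 and 3, LP replicates 1 and 2; adjusted p between 0.0528 and 0.126). It was also lost with the replicate block (adjusted p = 0.0551), without the filter on low counts (0.0678) and in each pair of replicates, at -2.68 in replicates 1 and 2 and -0.99 in replicates 3 and 4 (edgeR adjusted p = 0.161 and 0.378).

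The other genes with the largest decreases were low in abundance. Uqcr11, the smallest subunit of complex III, read 1.74, 1.39, 3.20 and 4.53 CPM in WT basal and 15.2, 21.5, 5.92 and 6.43 CPM in WT ML (log2 fold change -2.12 ± 0.70, edgeR adjusted p = 0.0375). Ndufa8, an accessory subunit of complex I, read 3.19, 0.993, 2.62 and 2.43 CPM against 7.28, 9.63, 5.92 and 9.94 CPM (-1.77 ± 0.60, adjusted p = 0.04). Cox6b1, a subunit of complex IV on the side of cytochrome c, read 4.49, 17.3, 1.17 and 6.47 CPM against 14.4, 33.4, 22.7 and 26.7 CPM (-1.68 ± 0.59, adjusted p = 0.0476). For Uqcr11 and Ndufa8 the groups did not overlap, while Cox6b1 in WT basal replicate 2 exceeded WT ML replicate 1. Each call was lost in several fits that left out 1 library, in 4 of 8 for Uqcr11 (WT basal replicates 1 and 3, ML replicates 1 and 2; highest adjusted p = 0.131). Uqcr11 was at -3.53 in replicates 1 and 2 alone but at -0.64 in replicates 3 and 4 alone (edgeR adjusted p = 0.653), and with the replicate block its adjusted p was 0.0735. The call was lost in 6 of 8 for Ndufa8 (all but WT basal replicates 1 and 2; highest adjusted p = 0.0998) and in 6 of 8 for Cox6b1 (all but WT basal replicate 2 and ML replicate 1; highest adjusted p = 0.12).

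Complex II, succinate dehydrogenase, is also an enzyme of the citric acid cycle. Sdhd, a membrane anchor subunit, was the member that fell: it read 41.7, 50.6, 14 and 31.7 CPM in WT basal, 48.1, 51.5, 44.9 and 31.7 CPM in WT LP, and 108, 65.1, 63.3 and 67.4 CPM in WT ML. The ML libraries lay above all basal and LP libraries (basal against ML -1.10 ± 0.34, edgeR adjusted p = 0.0274). For the flavoprotein subunit Sdha the estimate was -0.69 ± 0.27 (adjusted p = 0.0698), for the anchor subunit Sdhc -0.68 ± 0.40 (adjusted p = 0.241) and for the iron-sulfur subunit Sdhb 0.06 ± 0.43 (adjusted p = 0.94). Sdha in WT basal cells was 56.5, 119, 53.6 and 54.9 CPM, so replicate 2 set its spread. That library also had the highest LP marker sum of its group, and a link with its Sdha level was not tested.

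Isoform genes of complex IV were read almost wholly from the broadly expressed copy. Cox4i1, the regulatory subunit with a low-oxygen counterpart Cox4i2, read 42.6, 94.1, 16.3 and 52.8 CPM in WT basal and 144, 126, 98.5 and 139 CPM in WT ML. All basal libraries were below all ML libraries (log2 fold change -1.26 ± 0.37, edgeR adjusted p = 0.0192). Cox4i2 had at most 5 counts in any of the 24 libraries. The muscle isoform genes Cox6a2, Cox7a1 and Cox8b had 1, 15 and 2 counts summed over all 24 libraries, and their counterparts Cox6a1, Cox7a2 and Cox8a had 7429, 3001 and 3301. In WT ML cells the broadly expressed copies stood at 121 CPM per kilobase for Cox6a1, 64.7 for Cox8a, 127 for Ndufa4, 43.7 for Cox7a2 and 96.5 for Cox7a2l, a relative of Cox7a2. Ndufa4l2, the paralog of Ndufa4 known as a hypoxia-induced gene, had at most 7 counts, and Cox6b2, an isoform best known from testis, at most 13.

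The genes that did not pass the filter in WT libraries were these low isoforms (Cox4i2, Cox6a2, Cox6b2, Cox7a1, Cox8b, Ndufa4l2), the 2 pseudogene symbols and the assembly factor Ndufaf6. A gene expressed in a single group can pass the filter through that group, so the counts over tested members are not counts over all 92.

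ATP synthase subunit c, the protein of its membrane ring, is encoded by 3 genes whose products differ in the import sequence. Atp5g3 read 82.0, 81.6, 42.5 and 51.5 CPM in WT basal and 127, 106, 99.4 and 129 CPM in WT ML, with no overlap (log2 fold change -0.80 ± 0.27, edgeR adjusted p = 0.0412). Atp5g1 went the other way in its estimate, 0.88 ± 0.36, which did not pass (adjusted p = 0.0921). It read 41.7, 123, 113 and 72.7 CPM in WT basal and 58.4, 61.3, 47.0 and 30.7 CPM in WT ML, with overlap through basal replicate 1. Atp5g2 had an estimate of -0.66 ± 0.60 (adjusted p = 0.468). Per kilobase, the means of Atp5g1 and Atp5g3 were 142 ± 60.6 and 89.8 ± 28.5 CPM in WT basal cells and 79.8 ± 22.5 and 161 ± 20.6 CPM in WT ML cells (SD, n = 4), so the order of the 2 means differed between the populations.

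Promoters are shown for these 2 paralogs, whose basal against ML estimates had opposite signs, for Uqcrh, called lower than ML in both other WT populations, and for Sdhd, the called subunit of complex II. Each sequence runs from 250 bases before to 50 bases after the transcription start in RefSeq (GRCm38.p6), on the minus strand. Capitals mark letters that match 1 of 4 motifs searched on both strands: GCGCA, any base, then GCGC for NRF1, CCGGAAG for ETS factors such as GABPA, AAGATGGCG for YY1 and TCAAGGTCA for ERRA. NRF1, GABPA, YY1 and ERRA are transcription factors known for binding promoters of nuclear respiratory genes. The windows are chr4:116075021-116075320 for Uqcrh, chr9:50603800-50604099 for Sdhd, chr11:96075582-96075881 for Atp5g1 and chr2:73911277-73911576 for Atp5g3.
Uqcrh: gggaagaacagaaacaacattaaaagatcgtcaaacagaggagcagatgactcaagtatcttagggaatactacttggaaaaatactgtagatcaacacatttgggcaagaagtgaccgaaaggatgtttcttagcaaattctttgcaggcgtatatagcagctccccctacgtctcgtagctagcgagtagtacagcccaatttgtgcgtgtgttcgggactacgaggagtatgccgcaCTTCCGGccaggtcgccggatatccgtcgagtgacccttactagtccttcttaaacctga
Sdhd: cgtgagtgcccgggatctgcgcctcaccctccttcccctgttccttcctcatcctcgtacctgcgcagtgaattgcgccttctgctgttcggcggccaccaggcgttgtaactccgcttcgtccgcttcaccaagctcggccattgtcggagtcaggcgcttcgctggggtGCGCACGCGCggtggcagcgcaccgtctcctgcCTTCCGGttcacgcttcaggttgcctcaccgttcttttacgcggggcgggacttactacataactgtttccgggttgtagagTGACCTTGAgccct
Atp5g1: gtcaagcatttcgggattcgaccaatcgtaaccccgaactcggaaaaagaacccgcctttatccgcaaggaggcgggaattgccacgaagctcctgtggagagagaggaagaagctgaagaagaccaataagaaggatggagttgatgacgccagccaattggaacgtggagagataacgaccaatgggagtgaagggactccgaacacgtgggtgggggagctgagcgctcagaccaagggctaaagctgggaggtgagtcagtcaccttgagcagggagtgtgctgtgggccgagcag
Atp5g3: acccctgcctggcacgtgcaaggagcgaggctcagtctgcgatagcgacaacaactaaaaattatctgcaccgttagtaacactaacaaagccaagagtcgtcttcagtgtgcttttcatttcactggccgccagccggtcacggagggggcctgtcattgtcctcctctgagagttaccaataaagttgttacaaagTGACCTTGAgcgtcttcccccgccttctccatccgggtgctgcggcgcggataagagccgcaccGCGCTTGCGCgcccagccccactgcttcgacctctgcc
Uqcrh held an ETS match and Sdhd a match for NRF1, ETS and ERRA. Atp5g3 held an ERRA and an NRF1 match, and the Atp5g1 window held none of these letters. No 2 motifs overlapped in these 4 windows.

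Promoter windows were found for 75 of the 92 nuclear members (81 windows, since some genes have several starts). The NRF1 letters were in 24.7% of them and in 4.6% of all 32851 mouse promoter windows. ETS letters were in 21% against 8.86%, YY1 letters in 11.1% against 1.4%, and ERRA letters in 2.47% against 0.423%. In the 18 windows of 17 members that were lower in WT basal than ML cells, the shares were 27.8% for NRF1 and ETS (5 windows each). They were 11.1% for YY1 and ERRA (2 windows each). The 2 ERRA windows, of Sdhd and Atp5g3 shown above, were also the only 2 among all 81 member windows. A match describes the letters in a window, and no binding was measured.

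**Figure D3:**
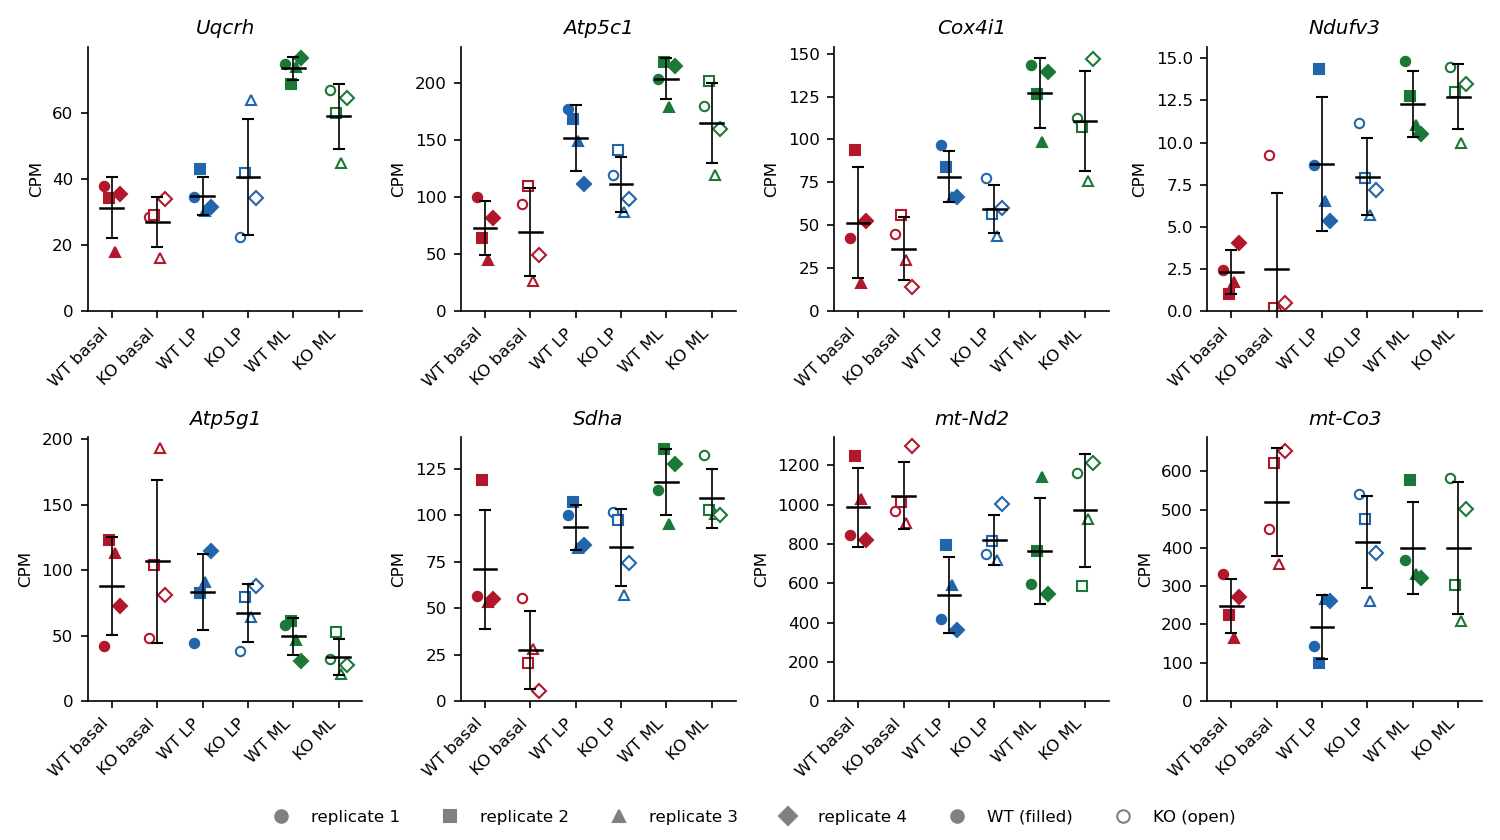
Levels (CPM on a common scaling of the 24 libraries, linear axes from 0) of 8 respiratory chain genes. Each symbol is 1 library, its shape the replicate number, filled for WT and open for KO, with the group mean and ± 1 SD (n = 4). Uqcrh and Atp5c1 in WT ML cells lie above all WT basal and LP libraries, Sdha in KO basal cells runs from 5.35 to 55.5 CPM, and mt-Co3 in KO basal cells lies above all WT basal libraries.

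Basal and LP cells of WT mice differed in few respiratory chain genes. Of the 83 nuclear members, 2 were lower in basal cells (Ndufv3 and Atp5c1, above), against 6.68% of all genes, and 0 were higher, against 9.12%. The median log2 fold change was -0.25 against -0.03 over all genes, 59 of 83 estimates were below 0, and 5 had an unadjusted p under 0.05. DESeq2 called 2. The median ran from -0.58 without WT basal replicate 2 to -0.07 without basal replicate 3 and -0.03 without LP replicate 2, and was -0.14 without basal replicate 4. It was -0.10 in replicates 1 and 2 alone and -0.42 in replicates 3 and 4 alone. The edgeR count was 8 without WT basal replicate 2, 4 without basal replicate 1, and 1 without basal replicate 3, LP replicate 1 or LP replicate 2.

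Nuclear respiratory chain estimates were also mostly lower in WT LP than in WT ML cells, a comparison that shares the ML libraries with the one above. Uqcrh was the 1 nuclear member of 83 that was lower in LP cells, where 4.89% of all genes were lower, and 0 were higher, where 6.62% of all genes were. Yet 77 of 83 estimates were below 0, with a median of -0.58 (all genes -0.01) that stayed between -0.71 and -0.44 with single libraries left out. Replicates 1 and 2 alone gave -0.58, and replicates 3 and 4 alone gave -0.57. All LP libraries lay below all ML libraries for 16 of 83 nuclear members, Sdhc, Sdhd, Cox4i1, Cox5a and Ndufs4 among them, against 11.9% of all genes. An unadjusted p under 0.05 was found for 13 of 83, and DESeq2 called 3.

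The 13 mitochondrial genes showed no common direction between WT basal and ML cells. None passed edgeR's test, 1 had an unadjusted p under 0.05, DESeq2 called 0, and 6 estimates were above and 7 below 0. Their median was -0.18, against 0.24 in replicates 1 and 2 alone and -0.29 in replicates 3 and 4 alone. The median turned to 0.17 without ML replicate 3, and without ML replicate 1 the count of called genes was 2. Between basal and LP cells 11 of 13 estimates were above 0, with a median of 0.42 (0.27 without LP replicate 1), and 1 gene, mt-Nd2, was called higher in basal cells. Mt-Nd2, a core proton-pumping subunit of complex I (chrM:3914-4951, plus strand), read 845, 1250, 1029 and 819 CPM in WT basal and 418, 792, 590 and 361 CPM in WT LP, with no overlap. Its log2 fold change was 0.90 ± 0.29 (edgeR, adjusted p = 0.0438), and the call was lost in 7 of 8 fits that left out a library (all but LP replicate 2; highest adjusted p = 0.133).

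Between LP and ML cells all 13 mitochondrial estimates were below 0, with a median of -0.51, and 2 genes passed. The median was -0.22 without ML replicate 3 and between -0.74 and -0.36 without any other library, and it was -0.15 in replicates 1 and 2 alone and -0.81 in replicates 3 and 4 alone. Mt-Nd6, the 1 protein gene read from the other strand (chrM:13552-14070, minus strand), read 120, 189, 159 and 102 CPM in WT LP and 143, 319, 505 and 291 CPM in WT ML, and ML replicate 1 overlapped LP (log2 fold change -1.13 ± 0.34, edgeR adjusted p = 0.0437). Mt-Co3, a core subunit of complex IV (chrM:8607-9390), read 143, 101, 267 and 262 CPM in WT LP and 368, 578, 332 and 322 CPM in WT ML, with no overlap (-1.03 ± 0.32, adjusted p = 0.0494). Neither call was steady. Without 1 library the count of 2 became 1 (without LP replicate 3, LP replicate 4 or ML replicate 1) or 0 (without LP replicate 1, LP replicate 2 or ML replicates 2, 3 or 4). The mt-Co3 estimate was -1.99 in replicates 1 and 2 alone but -0.29 in replicates 3 and 4 alone.

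Markers of fibroblasts, pericytes and immune cells moved with some of these contrasts. The fibroblast sum (6 genes, none at 0 in a whole group) was 88.6 to 201 CPM in WT basal, 113 to 396 CPM in WT LP and 145 to 1058 CPM in WT ML libraries, and 134 to 211, 139 to 578 and 85.4 to 403 CPM in KO basal, LP and ML libraries. The pericyte sum (5 genes, Kcnj8 at 0 in both basal groups) was 19.4 to 104, 81.1 to 127 and 82.1 to 179 CPM in WT basal, LP and ML, and 24.2 to 96.6, 68.1 to 124 and 74.5 to 162 CPM in KO. The immune sum (5 genes, Ptprc at 0 in KO basal) was highest in basal cells by its median. It was 16.9 to 117 CPM in WT basal libraries (median 29.1), with medians of 11.2 in WT LP and 6.99 in WT ML, and 0.931 to 31.5 CPM in KO basal libraries (median 18.9), with medians of 6.21 in KO LP and 7.76 in KO ML. The part of these markers in the differences between populations was not tested.

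In KO cells the nuclear genes again had lower medians in basal than in ML cells, with few calls. In KO libraries 84 nuclear members were tested, and 6 were lower in basal than in ML cells (7.14%), close to the 7.51% of all 12711 genes tested, so the count does not set the members apart. These were Atp5c1, Cox4i1 and Sdha, the ATP synthase stalk subunit Atp5f1 (log2 fold change -1.43 ± 0.36, edgeR adjusted p = 0.00905), the complex I assembly factor Ndufaf7 (-2.95 ± 0.99, 0.0461) and the complex III subunit Uqcrb (-2.73 ± 0.78, 0.0201). Ndufaf7 and Uqcrb rested on few basal counts. KO basal replicates 1 to 4 held 18, 2, 3 and 0 counts of Ndufaf7 and 25, 3, 3 and 15 of Uqcrb. Atp5g1 was the 1 gene that was higher in basal cells, where 11.9% of all genes were. The median log2 fold change was -0.67 against 0.02 over all genes, 72 of 84 estimates were below 0, and 18 had an unadjusted p under 0.05. The median was -1.08 without KO basal replicate 2, -0.63 without KO basal replicate 3 and between -0.83 and -0.62 with any other library left out. All basal libraries were below all ML libraries for 19 members, against 12.9% of all genes. The 7 calls of edgeR became 11 without KO basal replicate 1 and 3 without KO ML replicate 4, and 15 with DESeq2. With the replicate number as a block they were 12, with replicates 1 and 2 only 0, and with replicates 3 and 4 only 4.

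Sdha, the flavoprotein of complex II (chr13:74322254-74350280, minus strand), was lower in KO basal cells than in both KO luminal populations. It read 55.5, 20.5, 28.0 and 5.35 CPM in KO basal, 102, 97.5, 57.2 and 74.4 CPM in KO LP, and 133, 103, 101 and 100 CPM in KO ML, with basal below both luminal groups. Its log2 fold change was -1.91 ± 0.47 for basal against ML (edgeR, adjusted p = 0.00776) and -1.52 ± 0.46 against LP (adjusted p = 0.0342). It was the 1 nuclear member of 84 that was lower in KO basal than KO LP cells, against 6.69% of all genes, and 0 were higher, against 8.12%. The median of the 84 was -0.17 and ran from -0.51 without KO basal replicate 2 to -0.04 without KO LP replicate 2, with -0.07 without KO basal replicate 3, -0.08 without KO LP replicate 1 and -0.29 without KO LP replicate 3. The count was 3 without KO basal replicate 1 and 0 without KO basal replicate 2 or KO LP replicates 1, 2 or 4.

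Cox4i1 and Atp5c1 were the 2 genes called lower in basal than ML cells in both genotypes, 10% of the 20 WT calls and 33.3% of the 6 KO calls. The same overlap was not counted over all genes, so these shares do not set the members apart. Cox4i1 read 45.1, 56.0, 29.9 and 14.2 CPM in KO basal and 112, 107, 75.8 and 147 CPM in KO ML (log2 fold change -1.51 ± 0.38, edgeR adjusted p = 0.00878). Atp5c1 read 93.8, 110, 26.4 and 48.9 CPM in KO basal and 180, 201, 119 and 160 CPM in KO ML (-1.15 ± 0.36, adjusted p = 0.0324). For both genes the KO groups did not overlap. Atp5g1 read 48.3, 104, 193 and 81.0 CPM in KO basal and 32.0, 52.8, 21.1 and 27.6 CPM in KO ML (1.78 ± 0.43, adjusted p = 0.00755), with KO basal replicate 1 inside the ML range and replicate 3, the library with endothelial markers, highest. A link between those markers and Atp5g1 was not tested.

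Of the other WT calls, Uqcrh, Sdhd and Ndufv3 had a similar estimate in KO without passing, while Ndufb9 and Ndufv1 did not. Ndufa8 held 27, 41, 14 and 2 counts in KO basal replicates 1 to 4 and 31, 48, 19 and 68 in KO ML, with overlap. Uqcr11 held 33, 14, 4 and 11 against 72, 83, 5 and 34 counts, also with overlap. Cox6b1 held 41, 65, 0 and 94 against 150, 157, 104 and 194 counts. Uqcrh was at -1.04 ± 0.38 for KO basal against ML (edgeR, adjusted p = 0.0641), Sdhd at -1.06 ± 0.61 (0.259) and Ndufv3 at -2.24 ± 1.02 (0.141). Ndufb9, an accessory subunit of complex I, was at -1.29 ± 0.31 in WT (adjusted p = 0.00669) and 0.17 in KO (adjusted p = 0.849), and Ndufv1, the subunit that binds NADH, at -1.11 ± 0.38 (0.0424) and 0.07 (0.944). The test of the difference in the KO effect between basal and ML cells gave 1.39 ± 0.57 for Ndufb9, with an adjusted p of 0.641, so a difference was not shown.

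Between KO LP and KO ML cells 0 of 84 nuclear members passed edgeR's test in either direction, where 1.59% of all genes were lower and 4.08% higher. An unadjusted p under 0.05 was found for 4 of the 84 and DESeq2 called 1. Still, 78 of 84 estimates were below 0 with a median of -0.50 (all genes -0.01). LP lay below ML without overlap for 7 of the 84 members, close to the 8.49% of all genes, so that count does not set the members apart. No mitochondrial gene was called in the KO contrasts by edgeR or DESeq2, and 0, 2 and 0 of 13 had an unadjusted p under 0.05 in the basal to LP, basal to ML and LP to ML comparisons. Their medians were 0.25, 0.01 and -0.28. With single libraries left out the first fell as low as 0.03, without KO basal replicate 4, the second took both signs, and the last ran from -0.42 without ML replicate 2 to -0.10 without ML replicate 4.

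WT and KO libraries are separate samples, so the signs of the 83 nuclear members tested in both can be set side by side. For basal against ML cells 65 were below 0 in both genotypes, 3 above 0 in both and 15 opposite. For LP against ML cells the numbers were 75, 3 and 5, and for basal against LP cells 42, 15 and 26. Because members share libraries, these counts describe the data and carry no test.

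**Figure D4:**
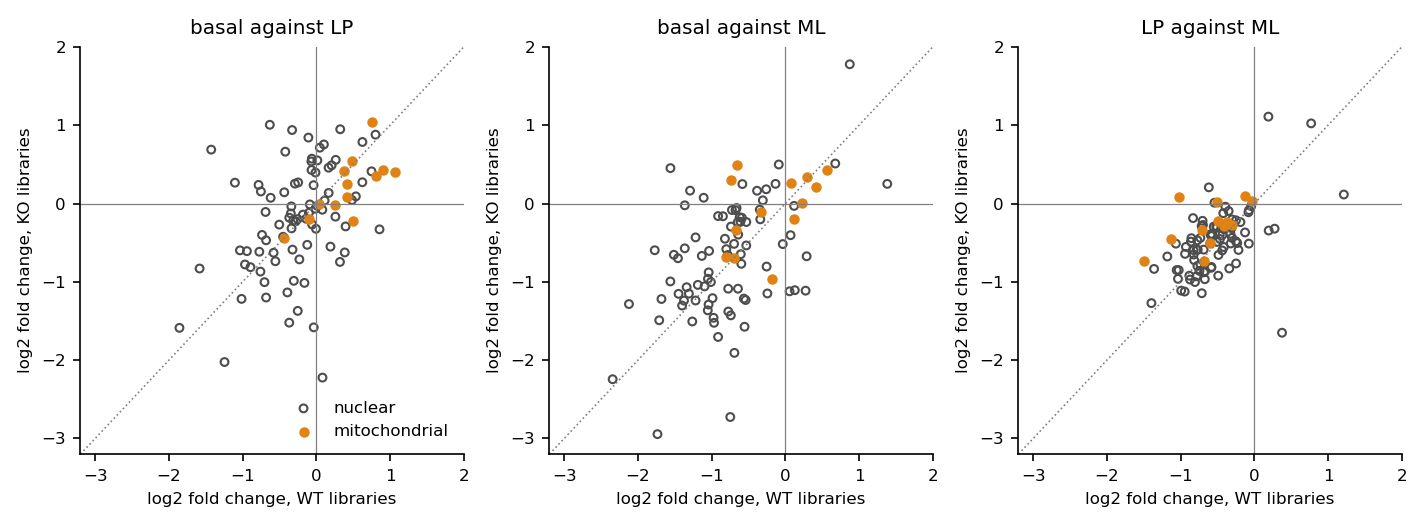
Log2 fold change (edgeR) of each respiratory chain gene in WT libraries (horizontal) against KO libraries (vertical) for the 3 pairs of populations; dark open circles are nuclear and orange circles mitochondrial genes, and the dotted line marks equal values. For LP against ML cells 75 of 83 nuclear genes lie below 0 on both axes, and for basal against LP cells 42 do.

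KO cells were then compared with WT cells within each population. Id4 was at most 1.38 CPM in the LP and ML libraries of either genotype, so little of its transcript could be lost there. KO basal replicates 1 and 3 kept 10.2 and 10.9 CPM, near the 13.3 CPM of WT basal replicate 2. The labels do not say which part of Id4 the KO allele lacks. No respiratory chain gene passed edgeR's test in basal (78 nuclear and 13 mitochondrial genes tested), LP (83 and 13) or ML cells (83 and 13), and DESeq2 called none either. The share of all genes called by edgeR was 0% in basal, 0% in LP and 0.00851% in ML cells. An unadjusted p under 0.05 was found for 1, 1 and 2 nuclear and 1, 2 and 0 mitochondrial genes. The nuclear medians were -0.11, -0.22 and -0.25 on the log2 scale, against 0.01, 0.00 and 0.01 over all genes. Estimates were below 0 for 47 of 78, 63 of 83 and 67 of 83 nuclear members.

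KO and WT libraries did not overlap for 3, 0 and 3 nuclear genes in basal, LP and ML cells on the scaling of each comparison, against 2.68%, 2.82% and 2.66% of all genes. Of the nuclear medians, the one in basal cells turned to 0.14 without WT basal replicate 2. In LP cells replicates 1 and 2 alone gave -0.20, replicates 3 and 4 alone -0.18, and in ML cells they gave -0.26 and -0.15. Single libraries moved both further. The LP value was -0.14, -0.08, -0.11 and -0.13 without WT LP replicate 1, WT LP replicate 2, KO LP replicate 3 and KO LP replicate 4, and -0.33 without KO LP replicate 2. The ML value was -0.14 without WT ML replicate 1 and -0.12 without KO ML replicate 3. The mitochondrial medians were 0.08, 0.33 and 0.04, of which the first and the last took both signs as single libraries were left out. In LP cells all 13 estimates were above 0 (median 0.28 and 0.45 within the pairs of replicates), and that median was 0.14 without KO LP replicate 4, 0.19 without WT LP replicate 4 and 0.21 without WT LP replicate 1. ML markers also differed between the LP groups, with a sum of 860 to 1604 CPM in KO and 484 to 752 CPM in WT LP libraries, and their part in the LP values was not tested.

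Mt-Co3 had the smallest unadjusted p of any member, in basal and in LP cells. It read 449, 622, 358 and 653 CPM in KO basal against 331, 224, 165 and 271 CPM in WT basal libraries, with no overlap. In KO LP it read 541, 475, 262 and 386 CPM against 143, 101, 267 and 262 CPM in WT LP, with overlap. The log2 fold changes were 1.10 ± 0.29 and 1.08 ± 0.33 (edgeR, unadjusted p = 0.0017 and 0.0063), and neither passed (adjusted p = 0.998 and 0.999). In ML cells the estimate was 0.01 ± 0.30. In replicates 1 and 2 alone the basal value was 0.97 and the LP value 2.07, and in replicates 3 and 4 alone they were 1.26 and 0.25. Other core subunits of complex IV did not share it, with 0.10 ± 0.26 for mt-Co1 and 0.04 ± 0.26 for mt-Co2 in basal cells.

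Among nuclear members, Sdha had the smallest unadjusted p in basal cells (log2 fold change -1.39 ± 0.58, edgeR unadjusted p = 0.0299, adjusted p = 0.998). Its KO basal values, 55.5, 20.5, 28.0 and 5.35 CPM, stood against 56.5, 119, 53.6 and 54.9 CPM in WT basal. On this common scale KO replicate 1 lay within the WT values, and on the scaling of the basal libraries alone the groups did not overlap. The estimate was -0.99 without WT basal replicate 2. In LP and ML cells the Sdha estimates were -0.19 ± 0.22 and -0.09 ± 0.18.

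None of the other genes with the smallest p in each direction passed. In basal cells they were Ndufb9 (0.95) and Ndufv1 (0.81) above 0, and Atp5f1 (-1.04 ± 0.53) and Atp5j, a stator subunit of ATP synthase (-0.92), below 0. In LP cells they were, below 0, the assembly factors Ndufaf5 (-1.69 ± 0.78) and Ndufaf4 (-0.66) and Atp5c1 (-0.46), and, above 0, mt-Nd2 (0.60 ± 0.26) and mt-Atp6 (0.54). In ML cells Ndufa7, an accessory subunit of complex I (-0.58 ± 0.26), Cox6c, a small subunit of complex IV (-0.50 ± 0.23), and Atp5g3 (-0.45 ± 0.21) were below 0, and Sdhb (0.56), Ndufb2 (0.35) and Ndufa5 (0.60) above.

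**Figure D5:**
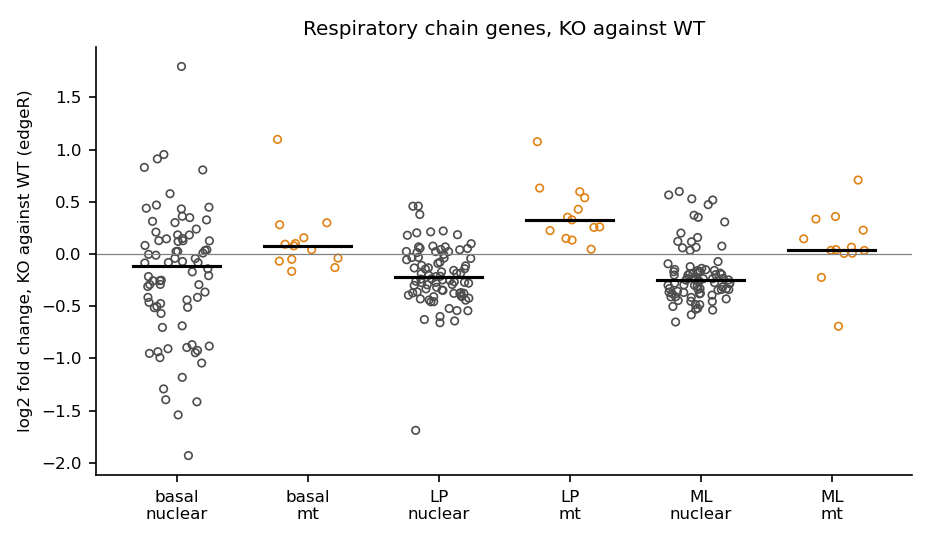
Log2 fold change of KO against WT (edgeR) for each respiratory chain gene in basal, LP and ML cells, nuclear and mitochondrial genes apart; each point is 1 gene and the bar is the median. The nuclear medians are -0.11, -0.22 and -0.25 and the mitochondrial medians 0.08, 0.33 and 0.04, and no gene had an adjusted p under 0.05.

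Whether the KO effect differed between populations was tested for each gene over all 24 libraries. No member passed edgeR's test for basal minus LP, basal minus ML or LP minus ML, DESeq2 called none, and edgeR called 0%, 0% and 0% of all 14082 genes. An unadjusted p under 0.05 was found for 1, 3 and 0 nuclear and 0, 1 and 1 mitochondrial genes. For mt-Co3 the difference was 1.07 ± 0.46 between basal and ML cells (unadjusted p = 0.0287, adjusted p = 0.66) and 1.08 ± 0.46 between LP and ML cells (unadjusted p = 0.0272). For Sdha it was -1.26 ± 0.54 between basal and ML cells (adjusted p = 0.655) and -1.18 ± 0.54 between basal and LP cells (adjusted p = 0.681). For Uqcrb it was -2.02 ± 0.89 between basal and ML cells (adjusted p = 0.66).

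Genes that serve the chain were followed by lists of their own, with edgeR's test in the WT libraries. Their counts stand beside the 10.6% of all genes that were lower and the 14% that were higher in WT basal than ML cells. Of 16 tested electron carriers and coenzyme Q genes, 3 (18.8%) were lower in basal than ML cells: Coq7, an enzyme of coenzyme Q synthesis, Etfb, a subunit of the flavoprotein that passes electrons from fat oxidation, and Cycs, cytochrome c (median of the list -0.81). Etfb read 6.96, 12.7, 4.66 and 13.3 CPM in WT basal and 43.8, 52.4, 18.5 and 22.9 CPM in WT ML, without overlap (-1.82 ± 0.50, adjusted p = 0.0148). Of 34 assembly factors 3 (8.82%) were lower, under the share of all genes, and 0 higher, with a median of 0.16. They included Cox17, a copper chaperone of complex IV, at 2.03, 5.96, 1.46 and 1.94 CPM in WT basal and 23.3, 21, 16 and 20.6 CPM in WT ML (-2.78 ± 0.53, adjusted p = 0.00119). Cox17 in KO basal libraries was 7.20, 15.4, 22.9 and 11.9 CPM, which overlapped the KO ML range. Of 20 genes of mitochondrial gene expression 1 (5%) was lower, Slirp, which binds mitochondrial mRNA (-1.50 ± 0.37, adjusted p = 0.00766).

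Genes of the citric acid cycle and of ATP exchange included lower members too. Counts over the citric acid cycle list are not given here. Among citric acid cycle and pyruvate genes, Cs, Fh1 and Suclg2 were lower in WT basal than ML cells, and Pdk4, a kinase that inhibits pyruvate dehydrogenase, was higher. Pdk4 read 597, 257, 168 and 259 CPM in WT basal, 550, 264, 278 and 154 CPM in WT LP and 58.1, 21.4, 83.1 and 52.8 CPM in WT ML (basal against ML 2.61 ± 0.46, edgeR adjusted p = 0.000663). Both other populations lay above ML. Of 8 genes of uncoupling and ADP exchange, Vdac1, Vdac3 and Atpif1 were lower (37.5%, against 10.6% of all genes) and Slc25a4 and Ucp2 higher (25%, against 14%). Of the 2 mitochondrial ribosomal RNAs, mt-Rnr1 was lower (-1.25 ± 0.41, adjusted p = 0.0355) and mt-Rnr2 was at -0.22 (adjusted p = 0.69).

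Glycolytic genes and regulators of mitochondrial biogenesis moved in both directions. Of 20 glycolysis genes 3 were higher in WT basal than ML cells (Pfkp, Slc2a1, Ldhb) and 3 lower (Tpi1, Pfkfb3, Pkm). Both shares were 15%, near the 14% and 10.6% of all genes. Between LP and ML cells 5 were higher (25%, against 6.62% of all genes) and 2 lower (10%, against 4.89%). Ldhb, the lactate dehydrogenase subunit typical of oxidative tissues, read 103, 67.5, 38.7 and 50.8 CPM in WT basal, 63.3, 81.2, 57.9 and 76.6 CPM in WT LP, and 6.50, 5.78, 6.12 and 4.97 CPM in WT ML. Its ML libraries lay far below all others (LP against ML 3.59 ± 0.33, edgeR adjusted p = 8.91e-06). Of 16 regulators 4 (25%, against 14% of all genes) were higher in basal than ML cells (Myc, Epas1, Hcfc1, Pprc1) and 1 (6.25%, against 10.6%) lower (Hif1a). Myc, a transcription factor of growth genes, read 786, 568, 522 and 606 CPM in WT basal, 190, 164, 209 and 364 CPM in WT LP, and 80.4, 69.5, 75.4 and 77.6 CPM in WT ML (basal against ML 3.08 ± 0.26, adjusted p = 9.68e-07). The 3 populations did not overlap, with basal highest and ML lowest.

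None of the genes in these lists passed edgeR's test between KO and WT in any population. The numbers with an unadjusted p under 0.05, for basal, LP and ML cells in turn, were 0, 1 and 2 for electron carriers, 2, 0 and 0 for assembly factors, 0, 1 and 3 for the citric acid cycle and 0, 1 and 2 for glycolysis. They were 1, 0 and 1 for regulators, 0, 0 and 1 for uncoupling and ADP exchange, and 0 throughout for mitochondrial gene expression and ribosomal RNA.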

How the data were processed

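RNA was extracted from sorted cells with the Qiagen miRNeasy micro kit, and 0.5 to 2 ng was amplified with the NuGEN Ovation RNA-seq System V2, per the labels' protocols. The authors deposited 1 table of expected counts per gene, which can be fractional (4.36% of the values were not whole) and divide reads between near-identical copies such as pseudogenes. Tools and build listed in the submitters' processing notes are RSEM, STAR, cutadapt and mm10, without versions or roles.

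Expected counts were rounded to whole numbers and 25 genes without a symbol were kept under their gene identifiers. Low genes were removed with filterByExpr in each fit, libraries were scaled by TMM, and genes were tested with edgeR's quasi-likelihood test (edgeR 4.0.16, limma 3.58.1, R 4.3.3) with Benjamini-Hochberg adjustment over all genes tested and a threshold of 0.05. The 3 populations were fitted together within each genotype, each population had its own fit of KO against WT, and differences of the KO effect came from a fit of all 24 libraries. The fits were also run on simulated data, and the outcome is not reported here. How often they detect differences of the size reported here was not tested. CPM in the text use 1 TMM scaling over all 24 libraries, and levels between genes were divided by the length column of the table.

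Members, gene lists and markers were chosen with earlier results of these data known. Genes named were, in each WT comparison, the 4 nuclear genes with the largest change in each direction among those past the threshold with a mean of at least 5 CPM in the higher group, and the 2 such mitochondrial genes. For KO against WT the 3 lowest p-values above and below 0 were taken, and for differences of the KO effect the 2 lowest. Isoform genes and complex II were always included, as were the 2 genes with the smallest p of each list. Atp5b, the abundant nuclear member, and the genes listed as parts of counts were named after their values were seen.

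Alternatives were DESeq2 1.42.0, no filter, scaling without mitochondrial genes, the replicate number as a block, pairs of replicates, and leaving out each library. Replicate numbers were taken from the titles, since a separate replicate tag of the KO ML samples repeats a number. Deviations of same-numbered libraries correlated by more than 0.1 in all 4 pairs for KO and WT LP cells (r from 0.104 to 0.318), and not in all 4 pairs for the other comparisons. The same-numbered library was the best match in 4 of 4 cases for WT basal with WT ML, WT basal with KO basal and WT LP with WT ML. For the remaining pairs of groups it was the best match in 2 or 3 of 4, where numbers without any link would give about 1 of 4. The main fits carried no block for the replicate number. With the block, KO against WT in LP cells called 0 members, as without it. Labels call the replicates biological and name no shared day or batch. A gene of the citric acid cycle list is not reported here.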

Additional observations from a re-analysis of the deposited data

Results flagged for a closer look

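In 6 of 102 groups of 4 libraries, 1 library lay far from the other 3 for a named gene or a share, and chance gives about 1 in 20 such groups. Sdha read 119 CPM in WT basal replicate 2, the library with the highest LP marker sum of its group, against 53.6 to 56.5 CPM in the others. A link between that marker sum and Sdha was not tested. Ndufv3 read 9.28 CPM in KO basal replicate 1 and at most 0.465 CPM in the other KO basal libraries, 1 of which was at 0. Atp5b read 1005 CPM in WT basal replicate 4 and 759 to 783 CPM in the others. Atp5g3 read 50.2 CPM in WT LP replicate 4 against 95.2 to 97.4 CPM, and 55.3 CPM in KO ML replicate 3 against 90.7 to 95.2 CPM. Sdha in KO ML replicate 1 was 133 CPM, against 100.012 to 102.933 CPM in the others.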

How the results depend on the processing

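Of 390 counts of called members recomputed under an alternative, 332 stayed within 1.5 times the reported count and 58 did not. Most of the 390 were for KO against WT or differences of the KO effect, at 0 in the main fit and every alternative. Counts above 0 were less steady. Leaving out 1 library moved nuclear counts in 5 of 8 fits (WT basal against LP), 6 (WT basal against ML) and 1 (WT LP against ML). In KO it moved them in 5 of 8 (basal against LP) and 2 of 8 (basal against ML). Of 674 values of single named genes, 609 kept direction and side of the threshold, 63 no longer passed and 2 changed sign. The cause was not tested. Most of the 674 belong to genes that did not pass in the main fit, and all 63 to genes that did. With DESeq2 the counts became 2 (WT basal against LP, mitochondrial; 1 reported), 3 (WT LP against ML, nuclear; 1), 2 (KO basal against LP, nuclear; 1), 15 (KO basal against ML, nuclear; 7) and 1 (KO LP against ML, nuclear; 0). Without a filter on low counts they became 1 (WT basal against LP, nuclear; 2) and 1 (KO basal against ML, mitochondrial; 0), and with scaling without mitochondrial genes 1 (WT LP against ML, mitochondrial; 2). The replicate block gave 4 (WT basal against LP, mitochondrial), 1 (WT LP against ML, mitochondrial) and 12 (KO basal against ML, nuclear), and 24 in place of 20 for WT basal against ML. The labels give these populations only a shared number, so the block is no test of pairing, and it moved no other count of members by over 1.5 times.

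With replicates 1 and 2 only the nuclear counts were 0 (WT basal against LP), 2 (WT basal against ML), 0 (WT LP against ML), 0 (KO basal against LP) and 0 (KO basal against ML), and the mitochondrial counts 0 for WT basal against LP and 0 for WT LP against ML. With replicates 3 and 4 only the nuclear counts were 3 (WT LP against ML), 0 (KO basal against LP) and 4 (KO basal against ML), and the mitochondrial counts 3 (WT basal against ML) and 2 (KO basal against ML). Ndufb9, in replicates 1 and 2 only, went to -0.43 for KO against WT in basal cells and to -0.43 for basal minus LP.

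Leaving out each library in turn gave nuclear counts of 1 to 8 (WT basal against LP), 7 to 39 (WT basal against ML), 0 to 1 (WT LP against ML), 0 to 3 (KO basal against LP) and 3 to 11 (KO basal against ML). Mitochondrial counts ran 0 to 2 (WT basal against LP), 0 to 2 (WT basal against ML) and 0 to 1 (WT LP against ML), and all other counts were 0 to 0. Depth limits genes near 1 CPM, where a library holds few counts.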
